A study of Arabidopsis thaliana with 8 samples.

Results

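SVP (AT2G22540) and AGL24 (AT4G24540) are the 2 genes described here, of 27655 loci with a value in shoot apices of Arabidopsis thaliana, and they were taken by their locus names. Both belong to the MIKC class of MADS-box transcription factors, proteins that bind DNA as dimers and act in larger complexes. SVP (Short Vegetative Phase) is a repressor of the floral transition that acts with FLC and other MADS-box partners on integrator genes such as SOC1 and FT. AGL24, its closest relative in this species, promotes the transition together with SOC1, and later, in young floral meristems, both SVP and AGL24 help to hold back organ identity genes such as SEP3. The pair was chosen by the RPKM of SVP in the knockdown line, which was known to be lower than in wild type. The genotype differences of both genes are therefore given as descriptions with no test, and the age differences carry the tests. Whether the age rise of AGL24 also entered the choice is not recorded, so the age p-values of the pair cannot be taken as independent of it.

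The knockdown line expresses an artificial microRNA against PECT1, an enzyme of phosphatidylethanolamine synthesis, from the promoter of FD, a bZIP gene of the shoot apex; its libraries were made at day 16 and at day 10. Wild-type apices of day 16 and day 10 are the controls, with 2 libraries in each of the 4 groups. All plants grew on half-strength MS plates in short days at 23 °C, and apices were collected at ZT 8, where ZT counts hours after lights on. The FD promoter is a limit of the model, since it is known to be active in only some cells of an apex. The sources used here do not give the accession, the number of transgenic lines or the number of plants per library, so p-values measure the spread between libraries, part of which may be technical.

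Values are RPKM, reads scaled by transcript length and library depth, so levels can be compared between genes. PECT1, the targeted gene, ranged from 34.4 to 37.1 RPKM in the knockdown line, against 39.2 to 41.3 RPKM in wild type (log2 fold change of both ages -0.16, limma adjusted p = 0.540). Depth, estimated from the size of the smallest steps in the values, was 15.47 to 18.2 M reads per library. Of the 10 apex markers, 7 reached 1 RPKM in 2 or more libraries, while the stem cell genes WUS and CLV3 did not, at up to 0.23 and 0.72 RPKM. Summed leaf mesophyll markers (4 genes) reached 20797 to 27720 RPKM, summed vascular markers (6 genes) 53.5 to 89.0 RPKM, and summed root markers (3 genes) 0 to 0.23 RPKM. Replicate 1 of the knockdown line at day 16 stood apart, with a mitochondrial sum of 264 RPKM against 106 to 159 RPKM in the other libraries.

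The first coding exon of both genes, which encodes most of the MADS DNA-binding domain, is shown because reads of paralogs can be told apart only where their sequences differ. In the RefSeq TAIR10.1 annotation SVP lies on the plus strand of chromosome 2, from 9579647 to 9583901, and its first coding exon is chr2:9580417-9580598. AGL24 lies on the minus strand of chromosome 4, from 12670897 to 12674106, and its first coding exon is chr4:12673464-12673645. Both are written 5′ to 3′ on the coding strand, and capitals mark the bases that differ.
SVP: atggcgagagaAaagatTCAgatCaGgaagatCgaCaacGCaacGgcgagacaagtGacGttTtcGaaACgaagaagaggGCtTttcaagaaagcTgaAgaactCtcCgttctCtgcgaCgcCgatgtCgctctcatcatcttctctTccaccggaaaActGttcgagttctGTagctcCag
AGL24: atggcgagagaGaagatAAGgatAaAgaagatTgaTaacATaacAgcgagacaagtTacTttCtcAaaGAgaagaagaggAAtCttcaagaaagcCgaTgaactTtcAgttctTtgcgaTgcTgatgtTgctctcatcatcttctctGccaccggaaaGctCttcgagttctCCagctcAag
These exons have the same length, 182 bases, and are identical at 148 of them (81.3%). Over the whole transcripts the longest identical run was 18 bases, gctctcatcatcttctct, which lies in this exon. No stretch of 50 bases was shared between any of the 3 SVP transcripts and the AGL24 transcript (0 shared). The predicted proteins have 240 residues (235 for 1 SVP transcript) and 220 residues for AGL24.

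SVP transcript was far lower in the knockdown line at both ages, while the AGL24 means of the genotypes lay close together and were 11.2 and 11.3 times as high at day 16 as at day 10. At day 16, SVP was at 7.08 and 6.67 RPKM in the knockdown line, against 43.1 and 54.2 RPKM in wild type. Its day 10 values were 3.15 and 4.55 RPKM in the knockdown line, against 34.1 and 32.0 RPKM in wild type. All 4 knockdown libraries lay below all 4 wild-type libraries. Among 17467 tested genes, 4.93% were lower with no overlap over both ages, 25.7% at day 16 and 21% at day 10, and since SVP was chosen for this difference nothing is read from its place among them.

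As means, SVP was at 6.88 ± 0.290 RPKM in the knockdown line and 48.6 ± 7.79 RPKM in wild type at day 16, which is 14.1% of the wild-type mean (SD, n = 2 each). At day 10 the means were 3.85 ± 0.990 RPKM in the knockdown line and 33.0 ± 1.46 RPKM in wild type, which is 11.7% of the wild-type mean. In whole apices, fewer cells that express SVP and less SVP RNA per cell cannot be told apart. Fold changes here and below are differences of log2(RPKM + 1), so for weakly expressed genes they come out smaller than the plain ratio. Those of SVP were -2.65 at day 16 and -2.83 at day 10. The authors' deposited tables of lower genes list SVP at both ages, 6.42-fold lower at day 16 and 8.49-fold lower at day 10, and AGL24 is in none of the 4 tables. Without replicate 1 of the knockdown line at day 16, SVP in that group was at 6.67 RPKM.

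The estimated number of reads behind these values, taking the longest annotated transcript as the length, was 196 and 217 for SVP in the knockdown line at day 16, against 1375 and 1671 in wild type. The day 10 libraries held 96 and 140 in the knockdown line, against 1056 and 1020 in wild type. The place of SVP among all loci was also lower. In the knockdown line 53.7% to 67.3% of loci had a lower RPKM than SVP, against 88.9% to 92.8% in wild type.

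At day 16, AGL24 was at 14.7 and 15.2 RPKM in the knockdown line, against 18.6 and 18.1 RPKM in wild type. Its day 10 values were 1.58 and 1.10 RPKM in the knockdown line, against 1.85 and 1.41 RPKM in wild type. The genotypes overlapped at day 10. At day 16 the knockdown libraries lay below the wild-type libraries, an order shared by 25.7% of tested genes. The knockdown mean was 81.4% of the wild-type mean at day 16 and 82.2% at day 10. The log2 fold change at day 16 was -0.28, beside a median of -0.11 over all tested genes, which was 0.0075 after median-of-ratios scaling. With that scaling AGL24 was at 16.8 and 14.2 RPKM in the knockdown line and 17.4 and 16.9 RPKM in wild type.

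**Figure D1:**
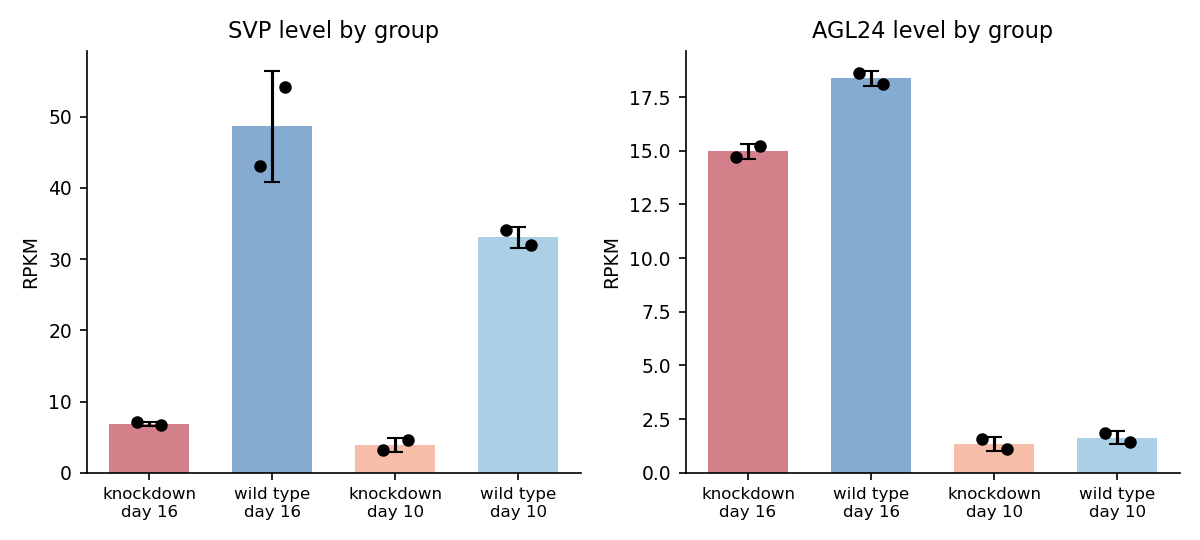
RPKM (linear axes) of SVP and AGL24 in each library (points) with the group mean (bars) and SD (error bars, n = 2), knockdown left of wild type at day 16 and then at day 10. SVP sits between 3.15 and 7.08 RPKM in the knockdown line and between 32.0 and 54.2 RPKM in wild type, and AGL24 between 14.7 and 18.6 RPKM at day 16 and between 1.10 and 1.85 RPKM at day 10.

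With age, AGL24 rose in both genotypes. In the knockdown line it averaged 14.97 ± 0.346 RPKM at day 16 and 1.34 ± 0.339 RPKM at day 10, an 11.2-fold higher mean (SD, n = 2 each). In wild type it averaged 18.4 ± 0.346 RPKM at day 16 and 1.63 ± 0.311 RPKM at day 10, an 11.3-fold higher mean. In limma with Benjamini-Hochberg adjustment over all 17467 genes, the log2 change was 2.78 ± 0.214 (SE) in the knockdown line (adjusted p = 0.00143) and 2.89 ± 0.214 in wild type (adjusted p = 0.000694). Without replicate 1 of the knockdown line at day 16, the change in that line was 2.80 (adjusted p = 0.0222). Leaving out any library left its group with 1, which was assumed to vary like the other groups, so such p-values rest on the spread of those. Of all tested genes, 0.235% rose with age in the knockdown line and 0.0344% fell, while in wild type 0.195% rose and 0.0286% fell. The log2 change of AGL24 differed between the genotypes by -0.11 (95% interval -0.78 to 0.57, knockdown minus wild type), which did not pass (limma adjusted p = 1.00), and of all tested genes 0% passed that comparison (288 at an unadjusted p under 0.05). The low level at day 10 rests on an estimated 31 and 22 reads in the knockdown line and 37 and 29 reads in wild type.

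SVP was higher at day 16 than at day 10 in both genotypes, by less. The mean was 1.79 times as high at day 16 in the knockdown line, with no overlap of the libraries, as for 15.9% of tested genes. In wild type it was 1.47 times as high, again with no overlap, as for 32% of tested genes. The log2 change was 0.71 ± 0.205 (SE) in the knockdown line and 0.54 ± 0.205 in wild type, and neither passed limma (adjusted p = 0.287 and 0.583; unadjusted p = 0.00607 and 0.0262). The median change of all tested genes with age was -0.0054 in the knockdown line and 0.10 in wild type. The difference of the SVP change between the genotypes was 0.18 (95% interval -0.47 to 0.83, adjusted p = 1.00). In order of level, wild type at day 16 was highest for SVP, then wild type at day 10, the knockdown line at day 16 and the knockdown line at day 10, and the ages within a genotype did not differ past the threshold. For AGL24 the order was wild type and then the knockdown line at day 16, followed by wild type and the knockdown line at day 10, whose libraries overlapped.

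Of the 7 tested apex markers, 0 passed with age in either genotype (limma; lowest adjusted p 0.0780; 2 at an unadjusted p under 0.05 in each genotype). Over all 17467 tested genes, 1493 in the knockdown line and 1303 in wild type had an unadjusted p under 0.05 with age (limma). Each such count with age below is read beside these. STM and LOB, a gene of organ boundaries, were higher at day 16 with no overlap in both genotypes. CLV1 and CUC2 were higher with no overlap in wild type and overlapped in the knockdown line. Such an order held for 15.9% of tested genes in the knockdown line and 32% in wild type. KNAT1, ATML1 and CUC3 overlapped in both. ATML1, an epidermal gene, had a log2 change of -0.16 in the knockdown line and -0.10 in wild type. STM, the KNOX gene that maintains the shoot meristem, had 17.5 and 17.4 RPKM at day 16 and 6.49 and 9.05 RPKM at day 10 in the knockdown line. In wild type STM had 12.3 and 12.6 RPKM at day 16 and 6.42 and 6.31 RPKM at day 10. Its age change did not pass (limma adjusted p = 0.0780 in the knockdown line and 0.215 in wild type). The summed apex markers came to 78.5 and 95.4 RPKM at day 16 and 68.6 and 80.6 RPKM at day 10 in the knockdown line, and to 85.3 and 79.5 RPKM at day 16 and 70.2 and 70.6 RPKM at day 10 in wild type. The summed levels of the ages overlapped in the knockdown line and did not overlap in wild type, and their part in the change of AGL24 was not tested. Summed mesophyll markers were at 20797 and 22106 RPKM at day 16 and 27720 and 23065 RPKM at day 10 in the knockdown line. In wild type these leaf genes summed to 24114 and 22618 RPKM at day 16 and 26273 and 27404 RPKM at day 10. The lower sums of day 16 were carried by RBCS1A, a Rubisco small subunit gene, with means of 8456 RPKM at day 16 and 12128 RPKM at day 10 in the knockdown line, and of 9413 RPKM at day 16 and 12426 RPKM at day 10 in wild type. RBCS1A and CA1 were lower with no overlap in both genotypes, as were 17.9% of tested genes in the knockdown line and 10.6% in wild type, and LHCB1.3 and LHCB2.1 overlapped in both. None of the 4 passed (0 in limma, lowest adjusted p 0.112, with 2 at an unadjusted p under 0.05 in each genotype), and their part in the change of AGL24 was not tested.

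The balance between the 2 genes followed from both patterns. SVP RPKM divided by AGL24 RPKM was 0.481 and 0.439 in the knockdown line at day 16, against 2.32 and 2.99 in wild type. The day 10 ratios were 1.99 and 4.14 in the knockdown line, against 18.4 and 22.7 in wild type. AGL24 exceeded SVP in the 2 knockdown libraries of day 16, and SVP exceeded AGL24 in the other 6 libraries. The ratio in the knockdown line at day 10 and that in wild type at day 16 overlapped.

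**Figure D2:**
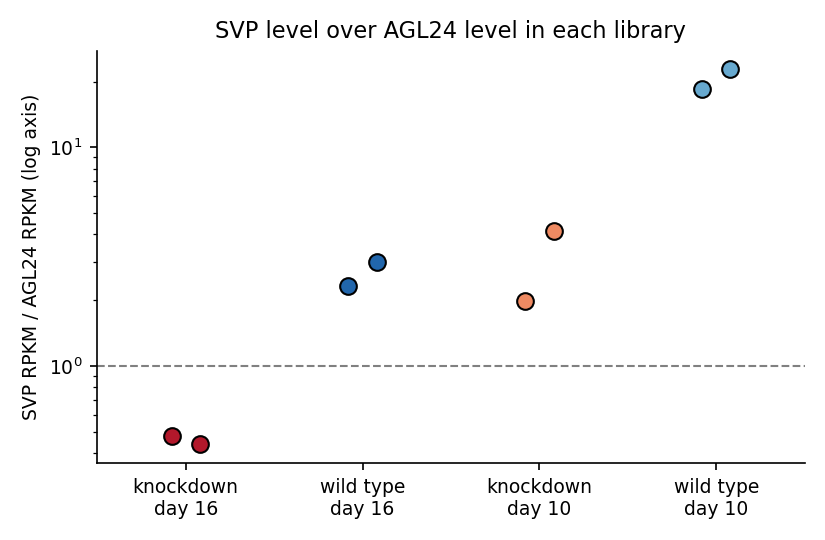
SVP RPKM divided by AGL24 RPKM in each library (points, log axis), with the knockdown line left of wild type at each age and a dashed line where both levels are equal. The knockdown libraries of day 16 lie below the line at 0.481 and 0.439, and the wild-type libraries of day 10 are highest at 18.4 and 22.7.

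The MIKC class gives the setting for these levels. Of the 37 other MIKC genes examined, 12 reached the level for testing, 1 RPKM in 2 or more libraries, and 6 were listed at 0 in all libraries. The genes examined may not be every gene of the class. SVP alone made up 8.82% and 7.36% of the summed RPKM of the 39 MIKC genes examined in the knockdown line at day 16, against 39.4% and 43.5% in wild type. At day 10 its share was 4.64% and 6.88% in the knockdown line, against 44.0% and 44.7% in wild type. SVP was the most abundant transcript of these 39 in the 4 wild-type libraries, and it ranked 4 to 7 in the knockdown libraries. AGL24 held 18.3% and 16.8% in the knockdown line at day 16, against 17.01% and 14.6% in wild type, and between 1.66% and 2.39% in the 4 libraries of day 10. It ranked 1 and 2 at day 16 in the knockdown line and 2 in both wild-type libraries, and 11 to 13 at day 10. The summed level of the 39 was 80.3 and 90.7 RPKM in the knockdown line and 109 and 124 RPKM in wild type at day 16. The day 10 sums were 67.9 and 66.1 RPKM in the knockdown line and 77.4 and 71.6 RPKM in wild type. All these sums include SVP, which was chosen for its lower level in the knockdown line. The order of the sums between the genotypes, and the shares of AGL24, therefore depend in part on SVP. Nothing is read from them about the other MIKC genes.

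**Figure D3:**
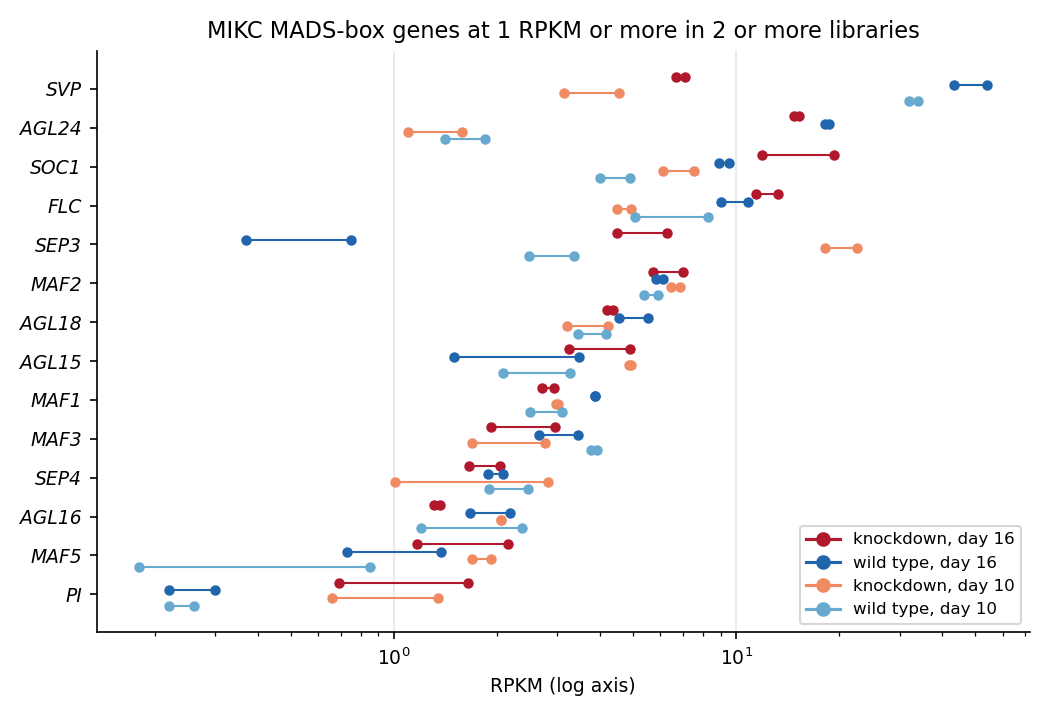
RPKM (log axis) of the 14 MIKC MADS-box genes, of those examined, at 1 RPKM or more in 2 or more libraries, ordered by mean level. Points are libraries and lines join the 2 libraries of a group, with the groups in the order of the legend. SVP is separated by genotype, AGL24 by age, and SEP3 by both, with 18.2 and 22.6 RPKM in the day 10 knockdown libraries.

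Among the 12 other MIKC genes examined and tested, 1 passed between the genotypes at each age and in the mean of both ages. It was the organ identity gene SEP3, which rose in the knockdown line. Over all tested genes, 0.0229% rose and 0.0916% fell at day 16 (4 and 16 genes, or 4 and 8 with quantile normalization). The shares were 0.0229% and 0.0515% at day 10, and 0.0687% and 0.177% in the mean of both ages. At day 16, SEP3 was at 4.48 and 6.28 RPKM in the knockdown line, against 0.75 and 0.37 RPKM in wild type. Its day 10 values were 22.6 and 18.2 RPKM in the knockdown line, against 3.37 and 2.48 RPKM in wild type, so the genotypes did not overlap at either age, as for 8.39% of tested genes that were higher at day 16 and 19.9% at day 10. Its log2 fold change was 2.03 ± 0.258 (SE) at day 16 (limma adjusted p = 0.0190) and 2.45 ± 0.258 at day 10 (adjusted p = 0.00552). SEP3 fell with age in the knockdown line (log2 change -1.75, adjusted p = 0.0295), and its change in wild type, -1.33, did not pass (adjusted p = 0.119). SEP3 rose in the mean of both ages under all 15 alternatives tried, but the call at day 16 ended when any of the 4 libraries of that age was left out (adjusted p = 0.0695 to 0.239). The call at day 10 ended without replicate 2 of wild type or without replicate 1 of the knockdown line at that age (adjusted p = 0.0959 and 0.0616). With no filter on low values both calls ended (adjusted p = 0.117 at day 16 and 0.0535 at day 10), as did the call at day 16 with a pseudocount of 4 (adjusted p = 0.0900). The age call of SEP3 ended when either library of the knockdown line at either age was left out (log2 change -1.96 to -1.55). It also ended with a pseudocount of 0.1 or with no filter (limma adjusted p = 0.0811 and 0.134).

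The other MIKC genes examined gave no call. SOC1, the MADS-box integrator that SVP represses and AGL24 promotes, was at 11.9 and 19.3 RPKM in the knockdown line and 8.92 and 9.55 RPKM in wild type at day 16. The knockdown libraries of day 10 had 6.13 and 7.55 RPKM, and those of wild type 3.99 and 4.90 RPKM. The libraries did not overlap at either age, with the knockdown line higher, as for 8.39% of tested genes at day 16 and 19.9% at day 10. The difference did not pass (adjusted p = 0.745 at day 16, 0.752 at day 10 and 0.271 for the mean). PI, a petal and stamen identity gene, was at 0.69 and 1.65 RPKM in the knockdown line and 0.30 and 0.22 RPKM in wild type at day 16 (adjusted p = 0.764). At day 10 its knockdown libraries had 1.35 and 0.66 RPKM, and those of wild type 0.22 and 0.26 RPKM (adjusted p = 0.752). PI reached the level for testing only through knockdown libraries, so nothing is read from its p-values.

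The FLC clade of repressors gave no call either. FLC, a partner of SVP, was higher in the knockdown line at day 16 (11.5 and 13.3 RPKM, against 10.8 and 9.02 RPKM in wild type). It was lower in the knockdown line at day 10 (4.93 and 4.50 RPKM, against 8.28 and 5.06 RPKM in wild type). Of tested genes, 8.39% were likewise higher with no overlap at day 16, and 21% lower at day 10. FLC passed between the genotypes at neither age (limma adjusted p = 0.849 at day 16 and 0.772 at day 10). The genotype difference of FLC changed between the ages by 0.68 ± 0.342 (SE, log2, day 16 minus day 10), which did not pass (adjusted p = 1.00). Its log2 change with age was 1.22 in the knockdown line and 0.54 in wild type. Neither passed (limma adjusted p = 0.0944 and 0.665). MAF1, also called FLM, forms a temperature-dependent repressor with SVP; it was at 2.70 and 2.94 RPKM in the knockdown line and 3.87 RPKM in both wild-type libraries at day 16 (adjusted p = 0.828). MAF2 ranged from 5.38 to 7.01 RPKM over the 8 libraries, MAF3 from 1.69 to 3.91 RPKM and MAF5 from 0.18 to 2.16 RPKM. The remaining tested genes, AGL15, AGL16, AGL18 and SEP4, lay between 1.01 and 5.54 RPKM, and none of them passed between the genotypes or with age. AP1 and FUL, which mark the change to floral and inflorescence meristems, reached at most 0.09 and 0.89 RPKM and were not tested.

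A list of 37 genes around SVP and AGL24 was examined by role, 9 of which are MIKC genes named above. Of these 37, 27 were tested. In the knockdown line 1 rose and 0 fell at each age, SEP3 both times, and 2 rose and 0 fell in the mean of both ages, SEP3 and GA20OX2. The median log2 fold change of the 27 was -0.13 at day 16 and -0.12 at day 10, beside -0.11 and -0.016 over all tested genes. At an unadjusted p under 0.05 there were 6 at day 16, 3 at day 10 and 7 in the mean. Over all 17467 tested genes limma gave 1112, 1163 and 2093, and each such count below is read beside these.

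Among 14 genes known to be bound or regulated by SVP or AGL24, 8 were tested. Their median log2 fold change was 0.43 at day 16 and 0.55 at day 10, beside -0.11 and -0.016 over all tested genes. At an unadjusted p under 0.05 (limma) there were 4 at day 16, 2 at day 10 and 4 in the mean. PI and LFY reached the level for testing only through knockdown libraries, so the median partly rests on genes let in by their knockdown values. The counts at day 16 and in the mean, here and for the whole list, include PI and carry the same limit. GA20OX2, an enzyme of gibberellin synthesis that SVP represses, was at 7.92 and 13.6 RPKM in the knockdown line and 3.28 and 2.35 RPKM in wild type at day 16. The knockdown libraries of day 10 had 8.11 and 6.66 RPKM, and those of wild type 3.67 and 3.79 RPKM. All 4 knockdown libraries were above all 4 wild-type libraries, as for 1.74% of tested genes. GA20OX2 passed in the mean of both ages (log2 fold change 1.21, adjusted p = 0.0447) and at neither age (adjusted p = 0.121 at day 16 and 0.638 at day 10). The call ended when any of 7 of the 8 libraries was left out (adjusted p = 0.0674 to 0.218), the exception being replicate 1 of the knockdown line at day 16. The authors' deposited tables of higher genes list SEP3 (10.37-fold at day 16, 7.09-fold at day 10), GA20OX2 (4.12-fold and 2.02-fold) and PI (4.77-fold and 4.21-fold) at both ages, and MAF5 at day 10 (3.51-fold).

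The remaining tested targets showed no call, and FT was below the level for testing. FT, the florigen, was listed at 0.07 and 0.28 RPKM in the knockdown line and at 0 in both wild-type libraries at day 16. For day 10 it was listed at 0 and 0.18 in the knockdown line and at 0 in both wild-type libraries. LFY, the floral meristem regulator, stayed between 0.23 and 1.15 RPKM and did not pass (adjusted p = 0.920 at day 16 and 0.849 at day 10). The abscisic acid hydroxylase genes CYP707A1 and CYP707A3, which SVP regulates in leaves under drought, ranged from 0.52 to 2.21 and from 0.52 to 3.86 RPKM, also without a call.

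Partners that work with SVP or AGL24 proteins had 0 of 7 tested members called at either age or in the mean (limma; unadjusted p under 0.05 in 1 at day 16, 0 at day 10 and 1 in the mean). SAP18, a component of histone deacetylase complexes that binds AGL24, was at 71.4 and 61.4 RPKM in the knockdown line and 61.1 and 58.3 RPKM in wild type at day 16 (adjusted p = 0.870). LHP1, a chromatin protein that acts with SVP at SEP3, was at 9.56 and 12.8 RPKM in the knockdown line and 11.8 and 14.5 RPKM in wild type at day 16 (adjusted p = 0.866).

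Upstream regulators had 0 of 5 tested members called in limma, with 0 at an unadjusted p under 0.05 at both ages. ELF3, a clock gene whose protein interacts with SVP, was at 6.68 and 12.9 RPKM in the knockdown line and 14.8 and 12.1 RPKM in wild type at day 16 (adjusted p = 0.817). The morning clock genes CCA1 and LHY, which are known to act on the amount of SVP protein, reached at most 0.46 and 0.20 RPKM at ZT 8 and were not tested.

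Repressors of other families had 0 of 8 tested members called in limma (unadjusted p under 0.05 in 2 at day 16, 1 at day 10 and 3 in the mean). Their median log2 fold change was -0.24 at day 16 and -0.38 at day 10, beside -0.11 and -0.016 over all tested genes. At day 16 the fold change was negative in 8 of 8 members, but in 5 of 8 after median-of-ratios scaling or quantile normalization. TOE3, a member of this list, reached the level for testing only through wild-type libraries. TEM2, a repressor of FT, was at 22.3 and 15.4 RPKM in the knockdown line and 34.2 and 29.4 RPKM in wild type at day 16. Its day 10 libraries had 18.7 and 8.42 RPKM in the knockdown line and 25.3 and 30.2 RPKM in wild type, again without overlap, as for 25.7% of tested genes at day 16 and 21% at day 10. The difference did not pass (adjusted p = 0.764 at day 16 and 0.614 at day 10). TEM1, its closest relative, was at 38.0 and 28.0 RPKM in the knockdown line and 34.5 and 36.3 RPKM in wild type at day 16 (adjusted p = 0.933).

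**Figure D4:**
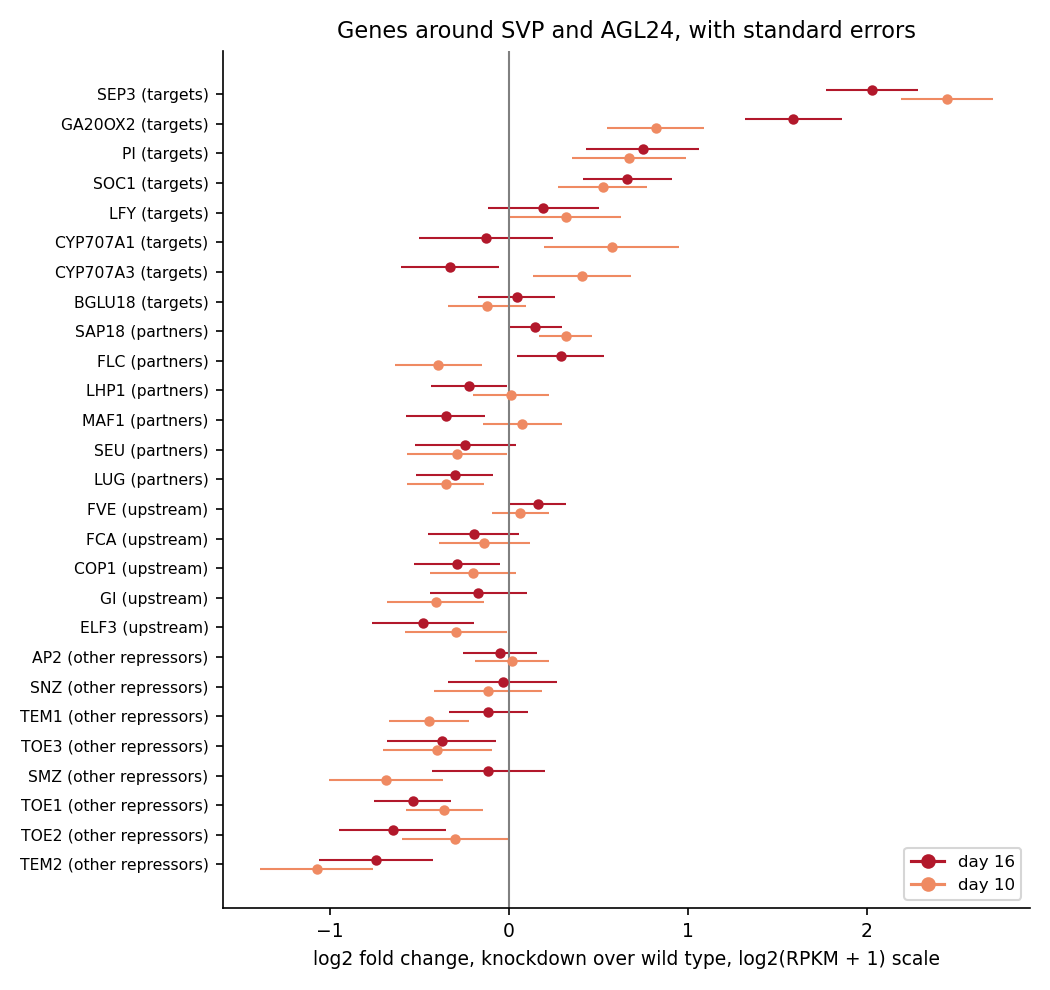
Log2 fold change of knockdown over wild type on the log2(RPKM + 1) scale, with standard errors from limma, for the 27 tested genes around SVP and AGL24 by role, at day 16 and day 10. SEP3 lies at 2.03 and 2.45, GA20OX2 is next, and TEM2 is the lowest at both ages.

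The genes beside SVP and AGL24 on their chromosomes gave no call. Of the 10 nearest annotated loci around SVP, 7 had a value and 5 were tested, and 0 passed between the genotypes at either age (limma; unadjusted p under 0.05 in 1 at day 16 and 0 at day 10). Their log2 fold changes ranged from -0.62 to -0.072 at day 16 and from -0.72 to 0.48 at day 10. AT2G22530, the locus before SVP, was at 0.83 and 1.95 RPKM in the knockdown line and 1.68 and 1.70 RPKM in wild type at day 16. NET2D, the locus after it, had 0.85 and 1.26 RPKM in the knockdown line and 1.29 and 1.28 RPKM in wild type at that age. Around AGL24, 8 of 10 loci had a value and 7 were tested. With age 0 of them passed in either genotype (unadjusted p under 0.05 in 1 in the knockdown line and 2 in wild type), and their log2 changes ranged from -0.36 to 1.20 in the knockdown line and from -0.25 to 1.41 in wild type.

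The genes whose levels ran most like those of SVP over the 8 libraries were ranked by Pearson r on log2(RPKM + 1), among the 12504 genes whose mean reached 5 RPKM in some group. Since these 8 points share the genotype and age groups, r is a description and carries no p. AT3G51000 (r = 0.992), the peroxidase gene PRXR1 (0.988), the fucosyltransferase gene FUT13 (0.983), the nudix hydrolase gene NUDX13 (0.983) and the tRNA splicing endonuclease gene SEN1 (0.982) were most alike. PRXR1 was at 59.7 and 93.4 RPKM in the knockdown line and 1420 and 1204 RPKM in wild type at day 16. The day 10 values of PRXR1 were 40.8 and 40.5 RPKM in the knockdown line and 816 and 891 RPKM in wild type. FUT13 differed less, with 3.45 and 4.37 RPKM in the knockdown line and 8.51 and 9.62 RPKM in wild type at day 16. AT1G25180 (-0.994), AT1G74060 (-0.991), AT5G19590 (-0.970), AT2G15910 (-0.958) and AT3G02220 (-0.954) ran most opposite to SVP. AT1G25180 was at 7.19 and 7.11 RPKM in the knockdown line, and listed at 0.37 and 0 in wild type at day 16.

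For AGL24 the most alike were AT3G25190, a member of the vacuolar iron transporter-like family (r = 0.992), LSH10 of the ALOG family (0.988), the extensin gene EXT4 (0.985), the ethylene response factor gene AT5G51190 (0.982) and its relative ERF5 (0.981). AT3G25190 had 16.9 and 19.5 RPKM at day 16 and 3.75 and 3.85 RPKM at day 10 in the knockdown line. In wild type AT3G25190 had 19.45 and 21.3 RPKM at day 16 and 5.90 and 4.42 RPKM at day 10. The cell wall enzyme gene XTH7 (-0.985), CXE18 (-0.978), PBP1 (-0.978), AT5G26280 (-0.972) and AT5G08050 (-0.969) ran most opposite to AGL24. XTH7 had 90.9 and 88.8 RPKM at day 16 and 289 and 232 RPKM at day 10 in the knockdown line, and 89.9 and 82.1 RPKM at day 16 and 246 and 261 RPKM at day 10 in wild type. SVP and AGL24 themselves had an r of 0.293 over the 8 libraries.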

How the data were processed

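The authors deposited RPKM values for 27655 loci in 8 libraries, as the file headers call them, and 4 tables of changed genes with a linear fold ratio (for lower genes a signed score) and a p-value, per the file headers. The submitters' processing notes name TAIR10 as the build; the sources used here do not give the aligner, the counting or the authors' test. Names, positions and sequences came from RefSeq TAIR10.1, which matched 27445 loci. Depth was found as the value at which low RPKM of genes with 1 transcript became whole reads; 97.0% to 100% lay within 0.1 of one. All p-values not credited to the authors came from limma 3.58.1 in R 4.3.3, which fitted log2(RPKM + 1) with a trend of the spread over mean level and 4 group coefficients over 8 libraries, two-sided, for the 17467 genes that reached 1 RPKM in 2 or more libraries, with Benjamini-Hochberg adjustment over all of them and a threshold of 0.05. The fit was tried on simulated data with large shifts in wild type at day 16 only. Smaller shifts, such as those of SVP with age, were not tried. Members and lists were chosen with earlier results of these data known, so no result here comes from an independent choice of genes. All 92 listed loci, markers included, carry the symbol that RefSeq pairs with them. Named genes were SVP, AGL24, the tested MIKC genes, fixed examples and any passing member of each role list, PECT1, FD, 5 loci on each side, and the 5 genes most and least like each member. Alternatives were pseudocounts of 0.1 and 4, no filter, median-of-ratios scaling, quantile normalization, a replicate block, no trend, and each library left out.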

Additional observations from a re-analysis of the deposited data

How the results depend on the processing

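The age rise of AGL24 passed in both genotypes under all 15 alternatives (adjusted p up to 0.0234), and the age change of SVP passed under none of them. In 8 of these alternatives 1 library was left out, so its group had no spread of its own and the p rests on that of the other groups. The difference of the age change between the genotypes never passed for either gene. For SVP it was 0.18 and turned to -0.024 with pseudocount 4, and with a library left out it ranged from -0.032 to 0.39. For AGL24 it was -0.11 and turned to 0.012 with median-of-ratios scaling, and with a library left out it ranged from -0.26 to 0.040. The genotype fold change of SVP became -3.09 at day 10 with pseudocount 0.1, and -2.24 at day 10 and -2.27 at day 16 with pseudocount 4; the pseudocount itself sets these. That of AGL24 at day 16 became -0.24 with pseudocount 4, -0.15 with median-of-ratios scaling and -0.20 with quantile normalization. The count of other MIKC genes called, and likewise of genes by role, was 0 at both ages with no filter and 0 at day 16 with pseudocount 4, and ranged from 0 to 1 at each age with a library left out. In the mean of both ages the count by role was 1 with pseudocount 4, no filter or no trend, and 1 to 2 with a library left out. GA20OX2 is the gene lost there. The cause was not tested.

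Whether replicate numbers pair the libraries was not settled. The deviations of same-numbered libraries correlated at -0.24 between the ages of wild type, and at 0.092 to 0.33 between the other groups. The replicate block changed no call named here for SVP and AGL24 (age change of AGL24 2.78 and 2.89 in the knockdown line and wild type). Over all genes it called 24 at day 16, 20 at day 10, 68 in the mean, and 109 and 89 with age in the knockdown line and wild type, beside 20, 13, 43, 47 and 39 without it. Counts over all genes moved by more than 1.5 times elsewhere too. At day 16 they were 11 with no filter and 12 with quantile normalization, and 11 to 19 with a library left out. At day 10 they ranged from 7 (without replicate 2 of wild type at day 10) to 26 (without replicate 2 of the knockdown line at day 10). In the mean they were 24 with no filter and 18 to 48 with a library left out. With age they were 15 with no filter and 30 with no trend in the knockdown line (16 to 53 with a library left out), and 12, 16 and 18 with no filter, no trend and median-of-ratios scaling in wild type (7 to 54). Depth limits AGL24 at day 10, at 22 to 37 estimated reads.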

Other observations

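FD, whose promoter drives the artificial microRNA, had 2.49 and 2.57 RPKM in the knockdown line and 2.38 and 1.74 RPKM in wild type at day 16. Its day 10 libraries had 1.23 and 1.05 RPKM in the knockdown line and 1.73 and 2.23 RPKM in wild type. Neither difference passed (limma adjusted p = 0.888 at day 16 and 0.753 at day 10). Of tested genes, 8.39% were likewise higher with no overlap at day 16, and 21% lower at day 10.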
